A study of Mus with 8 samples.

Results

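The genes described here are 9 components of the costamere and the intermediate filament network of muscle: Synm, Des, Dmd, Utrn, Sgca, Sgcb, Sgcd, Sgce and Pgm5. They were found by symbol among the 31269 genes of the deposited count table. All 9 passed the filter on low counts, as did 17629 genes in all. The 9 were selected on their function and on counts of these same 8 libraries, with their group differences already known, so those differences are given as a description and support nothing.

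Uterine RNA was sequenced in 8 libraries from mice at pseudopregnancy day 6, the progesterone-dominated state after a sterile mating. Of these, 4 carry the label of progesterone receptor (PGR) deficiency in the myometrium, the muscle wall of the uterus, and 4 are controls. The labelled tissue is that around implantation sites, which a pseudopregnant uterus lacks, and this is not settled here. The labels name no allele, Cre driver, strain, age, pooling of animals or batch. The labels do not say that each library is a separate animal, so p-values cover only the spread among the 8.

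Costameres are membrane plaques that tie the contractile filaments of a muscle cell to the matrix outside it. In smooth muscle the dystrophin complex and integrin-based dense plaques share this work: dystrophin or its relative utrophin binds actin inside, the sarcoglycans stabilise the complex in the membrane, and dystroglycan binds laminin outside. Intermediate filaments of desmin and synemin link the plaques to the interior, and the uterine myometrium is rich in desmin.

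Total counts ran from 71377993 to 72364750 in the libraries labelled deficient and from 70296369 to 71303026 in the controls. Pgr encodes the receptor that the labels name. In the libraries labelled deficient it averaged 176.9 ± 12.1 CPM (counts scaled to library size by TMM). In the controls it averaged 156.5 ± 22.8 CPM (SD, n = 4 each), and the groups overlapped. Its edgeR log2 difference of 0.18 ± 0.11 (SE) had an adjusted p of 0.338. The count covers the whole gene in whole tissue, and Pgr in muscle or in single exons was not measured here. The group is therefore called labelled deficient, and each direction below rests on that label. The smooth muscle genes were abundant in every library: Myh11, the smooth muscle myosin heavy chain, lay between 1410 and 1622 CPM in the libraries labelled deficient and between 1447 and 2272 CPM in the controls.

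Of the 9 genes, Synm and Pgm5 had no overlap between the groups and were lower in the libraries labelled deficient, and the other 7 overlapped. Among all genes tested 8.66% lay wholly below the controls and 7.61% wholly above. The log2 difference, labelled deficient over control, was negative for all 9, as it was for 48.0% of genes tested. Their median was -0.19, against 0.01 over all genes tested. The choice of the genes used this contrast, so nothing is read from these counts.

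Synm encodes synemin, a large intermediate filament protein that needs desmin or vimentin to form filaments and binds plaque proteins (chromosome 7 from 67730161 to 67759742, GRCm38.p6). It measured 54.0, 54.9, 69.8 and 45.7 CPM in labelled-deficient libraries 1 to 4, against 84.3, 93.6, 77.8 and 116.8 CPM in control libraries 1 to 4. The highest library labelled deficient, library 3, lay below the lowest control, also library 3. Means were 56.1 ± 9.998 CPM in the libraries labelled deficient and 93.1 ± 17.1 CPM in the controls (SD, n = 4 each). The log2 difference was -0.73 ± 0.16 (SE), which corresponds to a level 39.8% lower.

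Des encodes desmin, the main intermediate filament protein of muscle (chromosome 1 from 75360292 to 75368579). It measured 451, 558, 575 and 484 CPM in labelled-deficient libraries 1 to 4, against 465, 661, 566 and 660 CPM in the controls. The groups overlapped. Control library 1 lay near the bottom of the libraries labelled deficient, and library 3 labelled deficient lay above control library 3. Control libraries 2 and 4 were the highest of all. The log2 difference of Des was -0.19 ± 0.13 (SE). It was -0.29 without control library 1 and -0.13 without control library 2.

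The ratio of Synm to Des counts, in which library size cancels, was 0.120, 0.0983, 0.121 and 0.0946 in labelled-deficient libraries 1 to 4, against 0.181, 0.142, 0.137 and 0.177 in the controls. No library labelled deficient reached the lowest control ratio. Synm reads were thus fewer per Des read in each library labelled deficient than in any control. How often other pairs of genes part the groups was not computed. As Synm was chosen with this contrast known, the ratio is a description only.

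**Figure D1:**
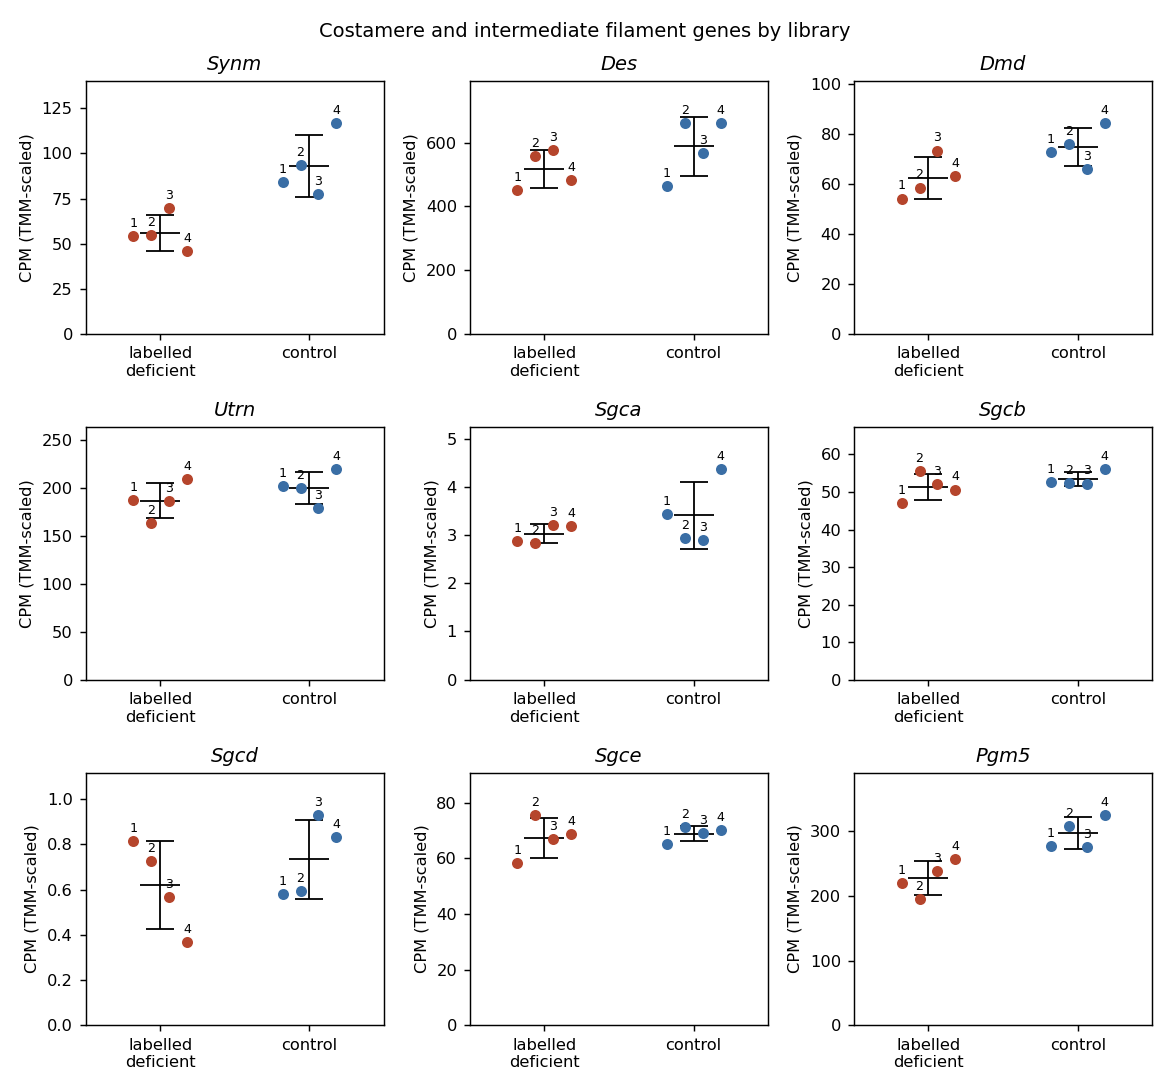
CPM (TMM-scaled) of each of the 9 genes on the vertical axis, with the 4 libraries labelled deficient on the left and the 4 controls on the right of each panel. Points are libraries with their numbers, and bars are the mean and SD. The 2 groups are apart for Synm and Pgm5 and overlap in the other 7 panels.

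Dmd encodes dystrophin, the rod-like protein that joins actin to the membrane complex (chromosome X from 82814664 to 85205050). It measured 54.1, 58.5, 73.3 and 63.2 CPM in labelled-deficient libraries 1 to 4, against 72.6, 75.9, 65.8 and 84.2 CPM in the controls. Library 3 labelled deficient lay above control libraries 1 and 3, so the groups overlapped through that library. The log2 difference was -0.26 ± 0.11 (SE). The gene also makes short isoforms from internal promoters, some of them outside muscle, and a count per gene does not separate them from full-length dystrophin.

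Utrn encodes utrophin, the dystrophin relative, which non-muscle cells also make (chromosome 10 from 12382187 to 12869888). It measured 187, 164, 187 and 209 CPM in labelled-deficient libraries 1 to 4, against 202, 199, 179 and 220 CPM in the controls. The lowest library was library 2 labelled deficient and the highest was control library 4, with the rest interleaved. The log2 difference was -0.10 ± 0.09 (SE). Dropping library 2 labelled deficient gave -0.04, dropping its library 3 as well gave -0.01, and dropping library 4 of that group gave -0.16. Dropping control library 3 gave -0.16 and dropping control library 4 gave -0.06.

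The balance of the pair within a library was also measured. Dmd counts per Utrn count were 0.289, 0.358, 0.393 and 0.303 in labelled-deficient libraries 1 to 4, against 0.360, 0.381, 0.367 and 0.384 in the controls. The libraries labelled deficient held both the highest and the lowest ratio of all 8 (SD 0.0483), and the controls lay close together between them (SD 0.0112).

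The sarcoglycans, the small membrane proteins of the complex, overlapped between the groups in all 4 cases. Sgcb, the beta subunit, was the steadiest at 47.2, 55.6, 52.1 and 50.7 CPM in labelled-deficient libraries 1 to 4, against 52.7, 52.3, 52.3 and 56.1 CPM in the controls (log2 difference -0.06 ± 0.06 SE; chromosome 5 from 73632749 to 73647737). That difference was -0.02 without library 1 labelled deficient and -0.09 without library 2 of that group. Sgce, the epsilon subunit, which can take the place of the alpha subunit in smooth muscle, measured 58.3, 75.7, 67.0 and 68.7 CPM in labelled-deficient libraries 1 to 4, against 65.2, 71.2, 69.1 and 70.2 CPM in the controls (chromosome 6 from 4674350 to 4747204). Both the lowest and the highest Sgce value fell in the group labelled deficient, and its log2 difference of -0.03 ± 0.08 (SE) changed sign, to 0.03, without library 1 of that group. It was -0.09 without library 2 labelled deficient, -0.07 without control library 1 and -0.02 without control library 2.

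Sgca and Sgcd had few reads. Sgca, the alpha subunit and the one typical of striated muscle, had 208, 191, 226 and 233 counts in labelled-deficient libraries 1 to 4, against 250, 208, 211 and 310 in the controls (log2 difference -0.17 ± 0.18 SE; chromosome 11 from 94962777 to 94976327). Without control library 4, the highest, that difference was -0.04. Sgcd, the delta subunit, had 59, 49, 40 and 27 counts in labelled-deficient libraries 1 to 4, against 42, 42, 68 and 59 in the controls (-0.24 ± 0.30 SE; chromosome 11 from 46971077 to 47989451), and it was -0.06 without library 4 labelled deficient, -0.40 without library 1 of that group and -0.11 without control library 3. The 95% interval of the Sgcd difference ran from -0.94 to 0.45 and holds 0 as well as the value seen for Synm.

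Pgm5 encodes aciculin, a protein of the phosphoglucomutase family that sits in adherens-type plaques and binds dystrophin and utrophin (chromosome 19 from 24678261 to 24861842). It measured 221, 195, 238 and 258 CPM in labelled-deficient libraries 1 to 4, against 278, 309, 275 and 326 CPM in the controls. The groups did not overlap, with library 4 of that group closest to control library 3. Means were 228 ± 26.5 CPM in the libraries labelled deficient and 297 ± 24.6 CPM in the controls (SD, n = 4 each), and the log2 difference was -0.38 ± 0.10 (SE), or 23.2% lower.

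Across the whole table edgeR's quasi-likelihood test called 0 of 17629 genes (0.00%) after Benjamini-Hochberg adjustment at 0.05, and so none of the 9. At an unadjusted p under 0.05 it had 24.8% of genes. DESeq2 called 2488 genes (14.1%), 1182 of them lower (6.70%), and limma-voom called 2 (0.0113%). The DESeq2 genes hold Synm and Pgm5, and the limma-voom genes none of the 9. The Synm call was kept in all 9 DESeq2 fits that left out libraries. The Pgm5 call was lost without control library 2, control library 4, or libraries 2 and 3 labelled deficient together. The genes were picked on this same contrast, so nothing is read from these calls.

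The libraries did not contribute equally. Library 1 labelled deficient was the lowest of the 8 for 4 of the 9 genes (Des, Dmd, Sgcb and Sgce), library 2 of that group for 3 (Utrn, Sgca and Pgm5) and its library 4 for 2 (Synm and Sgcd). Control library 4 was the highest for 6 (Synm, Dmd, Utrn, Sgca, Sgcb and Pgm5). The median log2 difference of the 9 genes was -0.13 without control library 4 and -0.28 without control library 1, and it was negative in each of the 8 fits that left out a library.

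Smooth muscle RNA itself differed between libraries, so each gene was also set against it. The mean log2 CPM of 14 smooth muscle contraction genes, with the control mean set to 0, was -0.24, -0.16, -0.08 and -0.19 in labelled-deficient libraries 1 to 4, against -0.30, 0.16, -0.06 and 0.20 in the controls. Control library 1 was thus the lowest of all in muscle genes, and the groups overlapped. In bulk tissue, fewer muscle cells and less RNA per muscle cell cannot be told apart.

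Relative to those 14 genes, Synm still had no overlap between the groups, though the share of all genes without overlap on this scale was not computed. With the control mean at 0 it lay at -0.52, -0.59, -0.32 and -0.82 on the log2 scale in labelled-deficient libraries 1 to 4, against 0.18, -0.14, -0.18 and 0.15 in the controls, a difference of -0.56. Des followed the muscle genes: it lay at -0.12, 0.10, 0.07 and -0.08 in labelled-deficient libraries 1 to 4, against -0.02, 0.02, 0.02 and -0.02 in the controls, a difference of -0.01. The spread of this relative Des level was 0.109 among the libraries labelled deficient and 0.0220 among the controls (SD, log2).

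**Figure D2:**
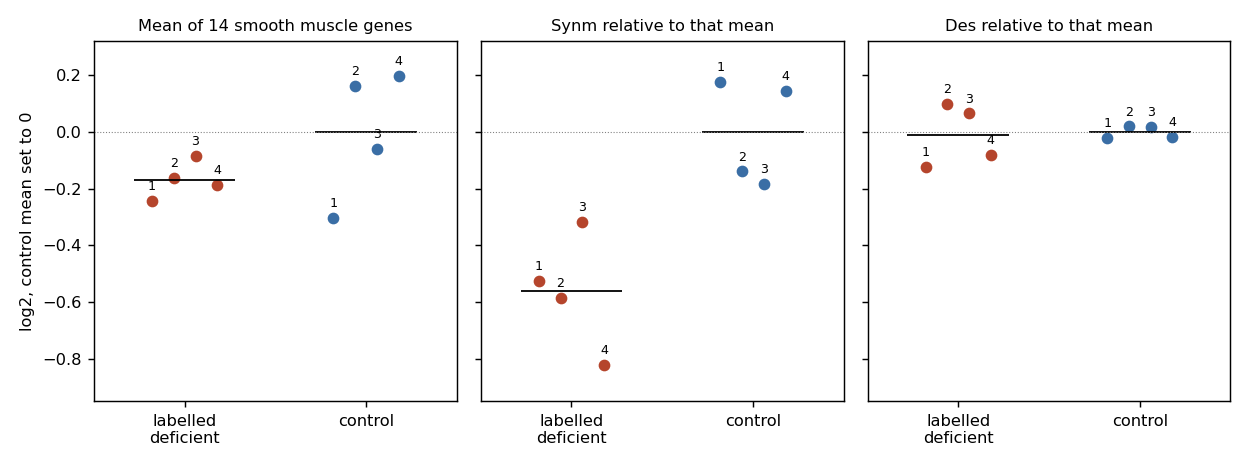
Log2 values with the control mean set to 0, for the mean of 14 smooth muscle contraction genes (left) and for Synm (middle) and Des (right) relative to that mean, in libraries labelled deficient and controls. Points are libraries with their numbers, and lines are group means. The relative Synm level is at most -0.32 in the libraries labelled deficient and at least -0.18 in the controls, while relative Des overlaps.

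For Pgm5 the relative difference was -0.22 and the groups overlapped, through library 4 labelled deficient at -0.01. Dmd was at -0.10 and Sgcd at -0.10 on this scale. Sgca at 0.01, Utrn at 0.07, Sgcb at 0.11 and Sgce at 0.13 no longer had negative differences. With any 1 library left out, relative Sgca ran from -0.10 to 0.13 and relative Sgcd from -0.28 to 0.12. Relative Utrn, Sgcb and Sgce stayed positive whichever library was dropped. Set against Myh11 alone in place of the 14 genes, Synm was at -0.43 without overlap, Pgm5 at -0.09, Dmd at 0.03 and Sgcd at 0.03. Synm is therefore the only one of the 9 whose groups did not overlap on any of the 3 scales, CPM, the 14 genes and Myh11. The share of all genes without overlap was computed for CPM alone. Since Synm was also chosen with this contrast known, nothing is read from its standing apart.

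**Figure D3:**
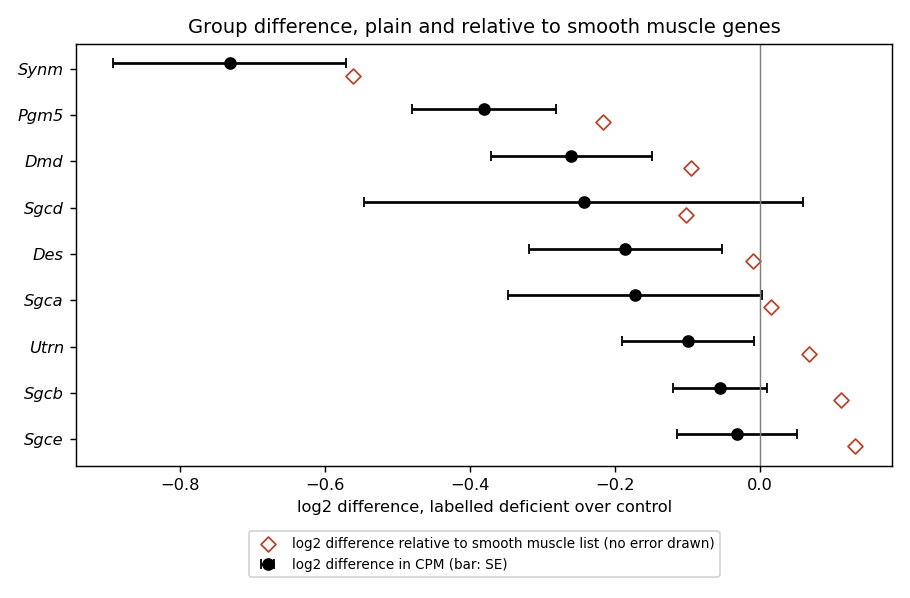
Log2 difference of each of the 9 genes, labelled deficient over control. Filled circles are differences in CPM with bars of 1 SE, and open diamonds are differences relative to the mean of 14 smooth muscle genes, with no error drawn. Synm lies farthest from 0 on both scales, at -0.73 and -0.56. Utrn, Sgca, Sgcb and Sgce pass to the other side of 0 when set against muscle genes, Sgca only to 0.01.

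The rest of the pathway was described with lists written from general knowledge. In each of the lists below, edgeR called 0 genes after adjustment over all genes and limma-voom also called 0. Over all 17629 genes tested, 11.8% were lower and 13.0% higher at an unadjusted p under 0.05 in edgeR. DESeq2 called 1182 of them lower (6.70%) and 1306 higher. Wholly below the controls lay 8.66%, and wholly above 7.61%. The 15 tested of 16 other genes of the dystrophin complex had 9 negative and 6 positive differences (median -0.11), with 1 lower and 3 higher at an unadjusted p under 0.05. DESeq2 called 3 of them, 1 lower and 2 higher. Without libraries 2 and 3 labelled deficient the median was 0.08.

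Nos1, neuronal nitric oxide synthase, which syntrophins anchor to the complex in muscle, was the clearest of the higher genes. It measured 6.12, 7.16, 6.84 and 7.10 CPM in labelled-deficient libraries 1 to 4, against 2.88, 4.35, 3.56 and 1.78 CPM in the controls. No values overlapped, and the log2 difference was 1.12 ± 0.26 (SE; edgeR adjusted p = 0.0906, DESeq2 adjusted p = 0.0013). Neurons also make Nos1.

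Drp2, a dystrophin-related protein of Schwann cells, measured 14.4, 16.0, 8.67 and 11.2 CPM in labelled-deficient libraries 1 to 4, against 3.69, 6.87, 7.72 and 4.50 CPM in the controls. All values of the libraries labelled deficient again lay above the controls (log2 difference 1.14 ± 0.29 SE; edgeR adjusted p = 0.0987, DESeq2 adjusted p = 0.00324). The DESeq2 calls of Nos1 and Drp2 were kept without any 1 library. The 8 Schwann cell and nerve markers divided evenly, with 4 negative and 4 positive (median -0.04), and their summed level was 59.5 to 157.6 CPM in the libraries labelled deficient against 78.3 to 115.5 CPM in the controls. The part of nerve cells in these values was not tested.

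Dtna, alpha-dystrobrevin, the cytoplasmic partner of dystrophin, was at 15.6, 12.4, 24.6 and 35.3 CPM in labelled-deficient libraries 1 to 4, against 50.9, 32.8, 48.9 and 58.4 CPM in the controls. Library 4 labelled deficient overlapped control library 2. Its log2 difference was -1.12 ± 0.33 (SE; edgeR adjusted p = 0.111, DESeq2 adjusted p = 0.0123), and the DESeq2 call was lost without control library 1, control library 4, or libraries 2 and 3 labelled deficient together. Dag1, which encodes dystroglycan and was chosen for mention after its value was seen, was at 0.20 ± 0.08 (SE; edgeR adjusted p = 0.173).

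Enzymes that add the laminin-binding sugars to dystroglycan showed no common direction. Of 18 genes 9 were negative and 9 positive, with a median of -0.01. Gmppb, which makes the mannose donor GDP-mannose, had the smallest p of them, at 0.65 ± 0.26 (SE; edgeR adjusted p = 0.174). It was the only one at an unadjusted p under 0.05, and DESeq2 called 0, or 1 without library 4 labelled deficient.

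Of 32 genes of integrin attachment plaques, 19 were negative and 13 positive (median -0.07, and -0.15 without libraries 2 and 3 labelled deficient), with 10 lower and 2 higher at an unadjusted p under 0.05. Over all genes tested those shares were 11.8% and 13.0%. In all 5 lay wholly below the controls, among them Lims2, Pdlim3 and Itga1, and none lay wholly above, against 8.66% and 7.61% of all genes tested. DESeq2 called 7 of the 32, all lower. That count was 4 without library 1, 2 or 3 labelled deficient, and 1 without control library 4 or without libraries 2 and 3 labelled deficient together.

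Lims2, which encodes the adaptor PINCH2 that binds integrin-linked kinase, measured 44.6, 41.1, 58.4 and 49.4 CPM in labelled-deficient libraries 1 to 4, against 69.9, 73.6, 66.2 and 74.3 CPM in the controls. The groups were well apart. Its log2 difference was -0.55 ± 0.11 (SE; edgeR adjusted p = 0.0906, DESeq2 adjusted p = 0.00055), and the DESeq2 call was kept without any 1 library and without libraries 2 and 3 labelled deficient together. Pdlim3, an actinin-binding LIM protein, averaged 162 ± 22.7 CPM in the libraries labelled deficient and 232 ± 31.6 CPM in the controls (SD, n = 4 each; log2 difference -0.52 ± 0.13 SE). Itga1, a collagen-binding integrin subunit, averaged 27.5 ± 4.99 CPM in the libraries labelled deficient and 44.0 ± 10.4 CPM in the controls (SD, n = 4 each; -0.68 ± 0.19 SE). The edgeR adjusted p was 0.0988 for Pdlim3 and 0.104 for Itga1, and both lost their DESeq2 call without control library 4 or without libraries 2 and 3 labelled deficient together.

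Other intermediate filament proteins and linkers numbered 17, of which 10 were negative and 7 positive (median -0.03, and 0.03 without library 2 labelled deficient or without libraries 2 and 3 of that group). Vim, vimentin, the other partner of synemin, was at -0.23 ± 0.18 (SE), and Plec, plectin, which cross-links filaments to plaques, at 0.05 ± 0.07 (SE), both picked once their values were known. The genes wholly below the controls were 3: Hspb1, a small heat shock protein, Dst, a spectraplakin that links filaments to the membrane, and Ank2, an ankyrin, the last chosen after its value was seen. Dst averaged 338 ± 61.5 CPM in the libraries labelled deficient and 484 ± 39.1 CPM in the controls (SD, n = 4 each; log2 difference -0.52 ± 0.13 SE, edgeR adjusted p = 0.101). Hspb1 was at -0.51 ± 0.13 (SE; edgeR adjusted p = 0.0988). DESeq2 called 2 of the 17, Dst and Hspb1; Dst was lost without control library 4, and Hspb1 without libraries 2 and 3 labelled deficient together. DESeq2 called 4 of them when library 4 labelled deficient was dropped and 1 when control library 4 was.

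Caveolae, the membrane pits that alternate with dense plaques along the smooth muscle membrane, had mostly positive differences: of 10 genes 3 were negative and 7 positive (median 0.08). That median was at or below 0 without control library 4 (-0.02), library 4 labelled deficient (-0.01) or library 1 labelled deficient (0.00). Ehd2, which stabilises caveolae at the membrane, averaged 248 ± 19.6 CPM in the libraries labelled deficient and 191 ± 21.9 CPM in the controls (SD, n = 4 each), without overlap (log2 difference 0.38 ± 0.10 SE, edgeR adjusted p = 0.0988). DESeq2 called Ehd2 alone of the 10, against 4 genes when library 4 labelled deficient was dropped, and the Ehd2 call was lost without control library 1, control library 4, or libraries 2 and 3 labelled deficient together. Cav2, caveolin 2, at -0.27 ± 0.10 (SE; edgeR adjusted p = 0.15), and Sdpr, cavin 2, at -0.60 ± 0.21 (SE; edgeR adjusted p = 0.142), lay wholly below the controls.

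**Figure D4:**
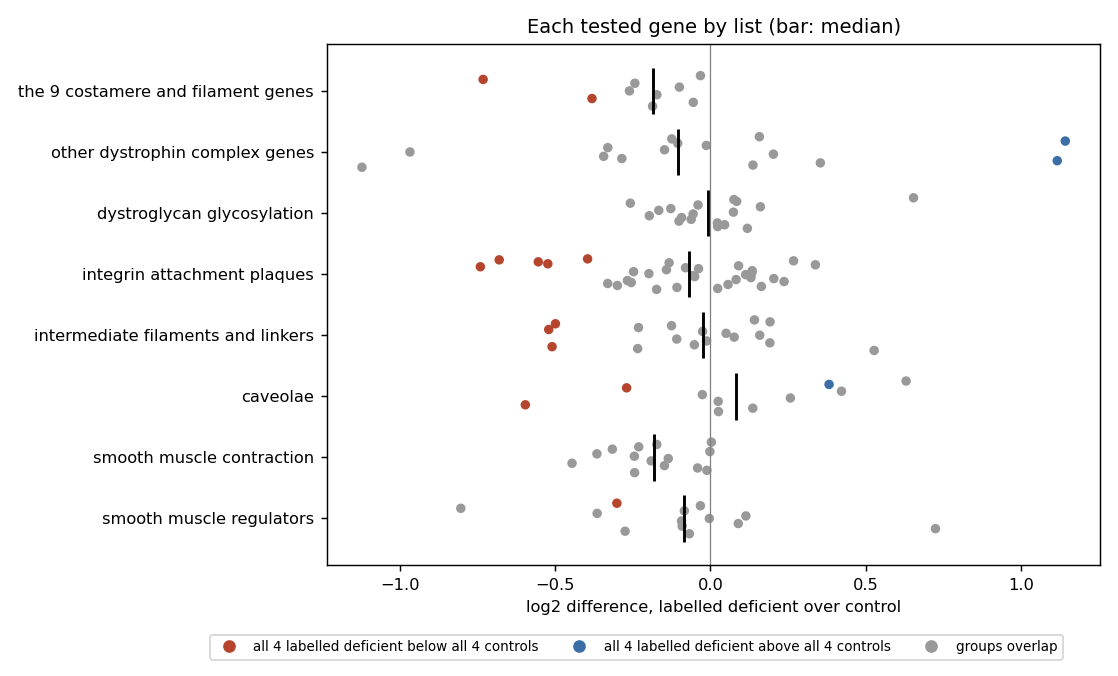
Log2 difference of each tested gene, labelled deficient over control, by list, with the median as a bar. Colours mark genes whose 4 libraries labelled deficient lie all below or all above the 4 controls. The 5 attachment plaque genes and 3 filament or linker genes wholly apart are all lower, and the 2 of the dystrophin complex, Nos1 and Drp2, are higher.

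The 14 smooth muscle contraction genes had 13 negative differences and 1 positive (median -0.18, close to the -0.19 of the 9 genes), none without overlap. At an unadjusted p under 0.05 there were 4, all lower, and DESeq2 called 0, or 6 without control library 1. Of 13 regulators of smooth muscle genes 10 were negative (median -0.08, and -0.01 without libraries 2 and 3 labelled deficient), with 3 lower and 1 higher at an unadjusted p under 0.05. DESeq2 called 2 of them, Mef2a and Myocd, both lower. It called 0 of them without library 2 or 3 labelled deficient, both of these, or control library 1, 2 or 4. Myocd, myocardin, the coactivator of serum response factor, measured 20.001, 15.2, 17.7 and 11.5 CPM in labelled-deficient libraries 1 to 4, against 22.8, 39.3, 16.5 and 33.8 CPM in the controls, where control library 3 overlapped. Its log2 difference was -0.80 ± 0.29 (SE; edgeR adjusted p = 0.146, DESeq2 adjusted p = 0.0488). Srf itself was at -0.27 ± 0.11 (SE; edgeR adjusted p = 0.17). Mef2a, a muscle transcription factor, lay wholly below the controls at -0.30 ± 0.09 (SE; edgeR adjusted p = 0.107, DESeq2 adjusted p = 0.0237).

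Marker lists of other cell types also differed in level between libraries. All 12 tested of 18 skeletal and cardiac muscle markers had negative differences (median -0.62), and their summed level was 81.4 to 91.1 CPM in the libraries labelled deficient against 114.8 to 157.4 CPM in the controls. Acta1, an actin, averaged 47.6 CPM in the libraries labelled deficient and 72.9 CPM in the controls, with overlap. Ttn, titin, averaged 2.63 against 9.96 CPM (log2 difference -1.92 ± 0.55 SE, edgeR adjusted p = 0.108), without overlap. Actn3, an actinin, averaged 4.32 against 5.94 CPM (-0.46 ± 0.14 SE, edgeR adjusted p = 0.112), also without overlap. Of the markers not tested, Myh1, Myh2, Myh4, Pvalb and Myod1, which define striated fibres or their precursors, had at most 3 counts in any library, and Myh6, a cardiac myosin, had 12, 3, 13 and 7 counts in labelled-deficient libraries 1 to 4, against 12, 5, 2 and 4 in the controls. The 8 pericyte markers had 7 negative differences (median -0.20, and -0.01 without libraries 2 and 3 labelled deficient; summed level 652 to 1000 CPM in the libraries labelled deficient, 972 to 1096 CPM in the controls). Among 10 endothelial markers 8 were negative (median -0.19), with 782 to 1530 CPM in the libraries labelled deficient and 1163 to 1446 CPM in the controls; without libraries 2 and 3 labelled deficient that median was 0.13.

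Epithelial markers had 7 of 10 positive differences (median 0.64; summed level 1307 to 2819 CPM in the libraries labelled deficient, 1150 to 1482 CPM in the controls), and a median of -0.04 without libraries 2 and 3 labelled deficient. Macrophage markers had 9 of 10 positive (median 0.50, and 0.32 without libraries 2 and 3 labelled deficient; 1030 to 1405 CPM in the libraries labelled deficient, 831 to 1105 CPM in the controls). Of these 10, 6 lay wholly above the controls, against 7.61% of all genes tested. At an unadjusted p under 0.05, 7 were higher, against 13.0% of all genes tested. Among the 17629 genes tested DESeq2 called 1306 higher. Of the 10 macrophage markers it called 6, all higher. That DESeq2 count was 2 without library 3 labelled deficient or control library 4, 3 without control library 1, and 1 without libraries 2 and 3 labelled deficient. Stromal fibroblast markers had 5 of 10 positive (median 0.01; 9463 to 11833 CPM in the libraries labelled deficient, 7156 to 9530 CPM in the controls). Of the remaining lists, 3 skeletal and cardiac markers, 1 pericyte, 1 stromal and 1 Schwann cell or nerve marker lay wholly below the controls. Over all genes tested that share was 8.66%. In the epithelial list 1 marker lay wholly above, against 7.61% of all genes tested, and no endothelial marker stood apart. DESeq2 called 3 skeletal and cardiac markers lower (2 to 5 with a library dropped), 1 pericyte marker lower (0 to 1), 1 Schwann cell or nerve marker lower (0 to 3), 1 epithelial marker higher (0 to 6), 2 stromal markers higher and 1 lower (0 to 4 in all) and 0 endothelial markers (0 to 1). Over all genes tested DESeq2 called 6.70% lower and 14.1% in either direction. The part of these cell types in the values of the 9 genes was not tested.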

How the data were processed

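The authors deposited a table of whole-number read counts per gene symbol for 8 libraries, with no normalization. HISAT2 2.2.1, HTSeq 0.10.0 and build mm10 are named per the submitters' processing notes, without settings or strand, so reads shared with an overlapping gene (Hils1 in Sgca, Tmem252 at Pgm5, Gm15179 at Des) cannot be told apart. Columns were matched to sample titles. Coordinates, and older symbols for 12 listed genes, came from RefSeq for GRCm38.p6, the assembly mm10 names.

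Genes were filtered with filterByExpr, scaled with TMM and tested with edgeR 4.0.16 in R 4.3.3 (glmQLFit and glmQLFTest, group as the only term, Benjamini-Hochberg over all genes, threshold 0.05). The SE was taken from the log2 difference and its F value. Levels relative to muscle used log2 CPM with a prior count of 0.5. DESeq2 1.42.0, limma-voom (limma 3.58.1), robust=TRUE, other scalings and filters, the replicate number as a block and leaving out libraries were alternatives; DESeq2 without libraries was added after seeing the data. The tests were tried on simulated data. All pairs of libraries differed beyond sampling noise (chi-square over degrees of freedom at least 46.5). Pairs of controls gave 46.5 to 78.2. Library 2 labelled deficient stood farthest out, at 337 to 461 with every library except library 3 of its group (128).

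The genes, lists and alternatives were chosen with earlier results of these data known. Named outside the 9 were Pgr, Myh11, Acta2, up to 3 genes per list with the smallest p, and the genes most like the 9, apart from genes not reported here; any other gene is marked as chosen later. A planned motif search in promoters was not run.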

Additional observations from a re-analysis of the deposited data

Results flagged for a closer look

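For Sgcb, control library 4 stood apart from the other controls at 56.1 CPM, against 52.3 to 52.7 CPM in the rest, a gap that was 0.884 of the range of the group. This was the only one of 18 groups of 4 libraries examined (9 genes in libraries labelled deficient and in controls) in which a library stood so far out, and chance gives about 0.9 in 18.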

How the results depend on the processing

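Every one of the 9 genes kept a negative difference under other scalings, filters in which it was tested, tests and the replicate block, and with any library left out, apart from Sgce without library 1 labelled deficient. Sgcd was not tested with a minimum of 1 CPM in at least 4 libraries. The median of the 9 was -0.30 without libraries 2 and 3 labelled deficient. Relative to Myh11 alone Des was at 0.12. Of 1772 values set against an alternative, 1644 stayed within 1 SD, within 1.5 times for counts, or on the same side of the threshold. Genes called numbered 2488 with DESeq2, 2 with limma-voom, 0 to 2 when edgeR left out a library, and 23 with the replicate number as a block, and the block called none of the 9. An unadjusted p under 0.05 was held by 5471 genes when labelled-deficient library 4 was dropped and by 2896 when control library 4 was. DESeq2 then called 3961 genes without labelled-deficient library 4 and 927 without control library 4. It called 1531 when labelled-deficient library 2 was dropped and 1328 when control library 1 was. The DESeq2 calls numbered 1461 without libraries 2 and 3 labelled deficient. Of the 9 genes DESeq2 called 2, 1 to 3 with a library left out, and 1 without libraries 2 and 3 labelled deficient. That alternative reversed Emcn (0.044), an endothelial marker; the cause was not tested.

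The labels do not say whether same-numbered libraries share more than a number. Their deviations correlated at 0.20, 0.22, -0.01 and -0.07 for numbers 1 to 4, and not every library correlated best with its own number. With the block, Synm was at -0.73 and Pgm5 at -0.38. Counts per library were lowest for Sgcd (27 to 68) and Sgca (191 to 310).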

Other observations

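The genes whose levels over the 8 libraries were most like the mean of the 9 standardised genes, among 15236 others with a mean of at least 1 CPM, were Fnbp1l (Pearson r = 0.99), Itpripl2 (0.98), Ccpg1 (0.98), A330021E22Rik (0.98), Ccdc93 (0.98) and Slc25a3 (0.98). Fnbp1l, a membrane-bending adaptor of the actin cytoskeleton, was at -0.44 ± 0.15 (SE, log2), and Slc25a3, the mitochondrial phosphate carrier, at -0.10 ± 0.06. Most like Synm alone were Hbs1l (0.997), Arl4d (0.98) and Tcf23 (0.98). Tcf23, a basic helix-loop-helix factor of the uterus also known as OUT, was at -0.67 ± 0.15 and Arl4d, a small GTPase, at -1.18 ± 0.27. Hbs1l, a ribosome rescue factor, was at -0.19 ± 0.06. Tcf23, Arl4d and Hbs1l all lay wholly below the controls, as did 8.66% of genes tested. These are descriptions over libraries that fall into 2 groups, chosen as the highest of many, and the likeness holds the group difference as well as the spread within groups.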
